A study of Mus musculus with 12 samples.

Results

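Interferon-stimulated genes are the genes that cells switch on when interferon reaches them, and 39 of them, with some of their regulators, were followed here across the livers of WT and *Marchf6* LKO mice. They were taken from a list of names: 6 regulators, 4 sensors of nucleic acid, 15 antiviral effectors, 6 interferon-inducible GTPases, 2 chemokines and 6 other induced genes. All 39 had a row among the 54232 genes of the count table, and all 39 were abundant enough to be among the 17509 genes tested. The LKO mice were *Marchf6* fl/fl AlbuminCre+ and the WT mice were *Marchf6* fl/fl AlbuminCre-, so both groups carried the floxed allele and the LKO mice alone carried Cre. All 12 were C57Bl/6J male littermates, 6 of each genotype, 10 weeks old and fasted for 4 h. MARCHF6 is a ubiquitin ligase of the endoplasmic reticulum, and the albumin promoter drives Cre in hepatocytes. Whether the other cells of these whole livers kept the intact gene was not measured here. The question for these genes was whether their level differed between the genotypes, and whether single livers carried the group means.

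Type I and type III interferons signal through receptor kinases to a complex, with STAT2 and IRF9 among its parts, that binds the interferon-stimulated response element (ISRE) in front of its target genes. Type II interferon (IFN-γ) acts through a different element, the gamma-activated sequence (GAS), and GTPases and *Cxcl9* are known as genes that respond to it. In the liver, hepatocytes, macrophages and endothelial cells all can respond. In whole tissue, fewer cells of a type and less RNA per cell cannot be told apart.

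The libraries held 14860414 to 22111926 counted reads (median 15884817.5 for WT, 17893575 for LKO). *Marchf6* itself gave 226 to 247 normalized CPM (read counts scaled to the depth of each library with TMM factors) in the 6 WT livers and 204 to 249 in the 6 LKO livers, a log2 fold change of -0.09 ± 0.060 (SE), with an adjusted p of 0.585 by edgeR's quasi-likelihood test. This whole-gene count includes the exons that Cre leaves in place and the cells in which Cre does not act, so it is no check of the genotype, which was taken from the labels. Each of the 39 genes had 8 to 11274 reads in a liver, so counting error is widest for the least abundant of them, and it is the only error that depth describes.

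No interferon-stimulated gene passed the test between LKO and WT livers. By edgeR's quasi-likelihood test, 0 of 39 had an adjusted p under 0.05, against 75 of all 17509 genes (0.428%; 0.274% higher and 0.154% lower). Of the 39 genes, 30 had a log2 fold change below 0, against 50% of all genes, and their median log2 fold change was -0.15, against 0.00016 over all genes. At an unadjusted p under 0.05, 6 of the 39 (15.4%) were reached, against 11.7% of all genes, and each of these 6 had its lower mean in LKO livers, against 5.36% of all genes in that direction (6.33% were higher). They were *Iigp1*, *Ifih1*, *Mx2*, *Gbp7*, *Rsad2* and *Ifit1*. For every one of the 39 genes the 2 groups overlapped, while 1.3% of all genes had groups that did not overlap. limma voom also called 0 of the 39, and its count over all genes is not given here. DESeq2 called 2 of them, *Iigp1* and *Ifih1*, both lower in LKO, against 2% of all genes (0.977% lower). The 6 genes at an unadjusted p under 0.05 became 11 without WT replicate 3 and 10 without LKO replicate 1. The share of all genes at that threshold was not computed for these fits, so these counts are no result about the 39. The 75 calls over all genes became 132 without WT replicate 3 and 38 without WT replicate 5.

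**Figure D1:**
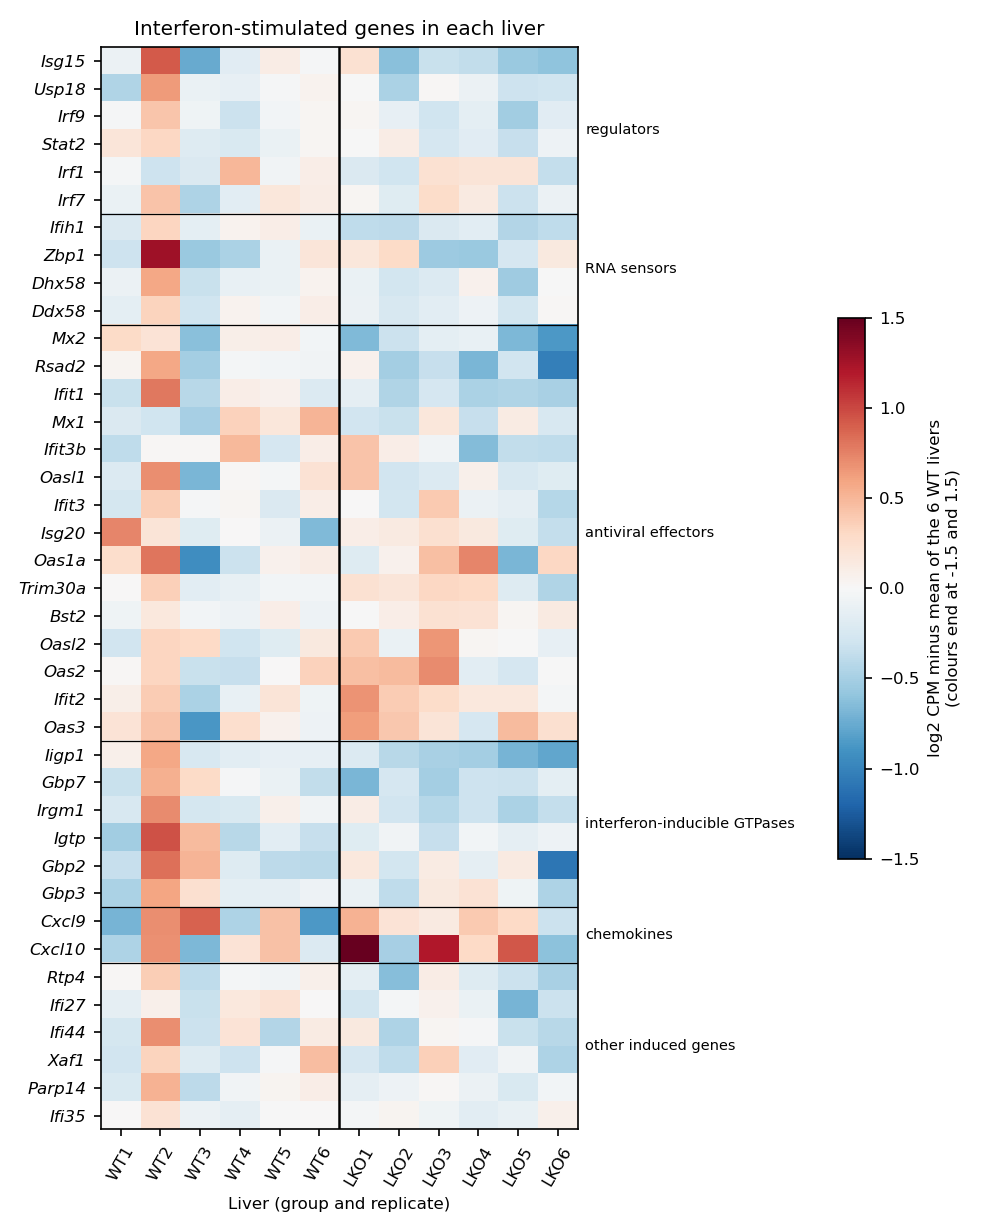
Level of each of the 39 genes (rows, by role, ordered by log2 fold change within a role) in each of the 12 livers (columns), as log2 CPM minus the mean of the 6 WT livers, with red above and blue below that mean. The column of WT replicate 2 is red for 37 of the 39 genes, and the LKO columns carry both signs, with *Cxcl10* in LKO replicate 1 the darkest red.

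Their levels covered a wide range. Per kilobase of exon the highest mean levels in WT livers were *Bst2* (97.6 normalized CPM per kb), *Iigp1* (77.8), *Ifi27* (46.6), *Stat2* (16.2) and *Igtp* (13.2). In LKO livers the same measure was 106 for *Bst2*, 53.8 for *Iigp1*, 40.1 for *Ifi27*, 14.8 for *Stat2* and 11.1 for *Igtp*. The lowest per-kb level was that of *Oas3*, 0.140 in WT and 0.168 in LKO livers. Among WT livers the median coefficient of variation of the 39 genes was 23.8%, and among LKO livers it was 18.2%.

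Promoters were looked at for the ISRE, a known element of such genes. The list holds genes known to respond to interferon, so their share with the element is no independent result about these livers. The RefSeq promoter table (GRCm38.p6) held 29 of the 39 genes, and *Usp18*, *Oas2*, *Mx1*, *Mx2*, *Dhx58*, *Zbp1*, *Ifi27*, *Rtp4*, *Parp14* and *Iigp1* were not among them. In the 250 bases before the start, the ISRE letters GAAANNGAAA, or TTTCNNTTTC on the other strand, stood in 16 of these 29 genes (55.2%), against 3.46% of 27025 genes. Counted by promoter, that was 16 of 36 (44.4%), against 2.98% of 32851. The GAS letters TTCNNNGAA, which read the same on both strands, stood in 7 of the 29 genes (24.1%), against 8.13% of genes. In 1 of the 36 promoters an ISRE match and a GAS match overlapped. By role, the ISRE letters were in 5 of 5 GTPases, 8 of 12 antiviral effectors, 2 of 5 regulators and 1 of 2 chemokines, and in 0 of 2 sensors and 0 of 3 other induced genes. A match is a stretch of letters, not a shown binding site. The stretches below belong to 4 genes at an unadjusted p under 0.05 or with the widest fold changes (*Gbp7*, *Ifit1*, *Rsad2*, *Isg15*), to *Igtp*, and to the near-identical pair *Ifit3* and *Ifit3b*. Each lies before the annotated gene and reads 5′ to 3′ along the gene's strand, with the ISRE letters in capitals.
*Gbp7*, chr3:142530253-142530322, plus strand: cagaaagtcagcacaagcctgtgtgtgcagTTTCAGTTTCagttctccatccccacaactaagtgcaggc
*Igtp*, chr11:58199492-58199555, plus strand: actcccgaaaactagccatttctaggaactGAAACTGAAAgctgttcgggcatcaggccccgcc
*Isg15*, chr4:156200845-156200914, minus strand: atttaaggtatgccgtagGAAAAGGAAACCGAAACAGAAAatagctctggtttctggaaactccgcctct
*Ifit1*, chr19:34640774-34640843, plus strand: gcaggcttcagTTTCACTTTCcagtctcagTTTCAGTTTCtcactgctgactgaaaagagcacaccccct
*Rsad2*, chr12:26456533-26456602, minus strand: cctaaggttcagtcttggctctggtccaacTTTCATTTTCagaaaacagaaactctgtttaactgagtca
*Ifit3*, chr19:34583373-34583446, plus strand: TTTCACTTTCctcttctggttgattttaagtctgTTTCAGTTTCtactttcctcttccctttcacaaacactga
*Ifit3b*, chr19:34607769-34607842, plus strand: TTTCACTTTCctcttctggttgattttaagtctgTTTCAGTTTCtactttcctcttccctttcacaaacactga

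The *Ifit3* and *Ifit3b* stretches are the same letter for letter, 74 bases long. The *Isg15* stretch holds 3 overlapping matches, the *Ifit1*, *Ifit3* and *Ifit3b* stretches hold 2 each, and those of *Gbp7*, *Igtp* and *Rsad2* hold 1. Genes with the element did not share a direction: *Oas3* and *Cxcl10*, which hold it, had log2 fold changes of 0.26 and 0.76, and *Ifih1*, which does not hold these letters in this window, had -0.34.

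The interferon-inducible GTPases had their lower mean in LKO livers in 6 of 6 genes, with a median log2 fold change of -0.29, and none of them passed the test. These proteins, the guanylate-binding proteins (*Gbp2*, *Gbp3*, *Gbp7*) and the immunity-related GTPases (*Iigp1*, *Igtp*, *Irgm1*), act at the membranes around intracellular pathogens. *Iigp1* (chromosome 18, 60376027 to 60392634, plus strand) ran from 376 to 663 CPM in WT livers with a median of 408, and from 260 to 384 in LKO livers with a median of 315. The WT liver at 376 was the only one below the LKO liver at 384, and the WT liver at 663 stood above all others. The log2 fold change of *Iigp1* was -0.53 ± 0.135 (SE), with an adjusted p of 0.11 by edgeR's quasi-likelihood test and 0.0149 by DESeq2. Leaving out each liver in turn kept it between -0.60 and -0.39, with edgeR adjusted p-values from 0.0767 to 0.223.

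*Gbp7* (chromosome 3, 142530342 to 142550149, plus strand) ran from 13.5 to 25.3 CPM in WT livers, median 16.8, and from 10.9 to 15.8 in LKO livers, median 14.1. Its log2 fold change was -0.40 ± 0.147 (SE), with an adjusted p of 0.291 by edgeR's quasi-likelihood test. The groups overlapped between 13.5 and 15.8. Of the 50-base stretches of *Gbp7* exons, 12.7% also occur in another gene, most often the overlapping *Gm43802*, so its count is uncertain. *Irgm1* ran from 50.4 to 99.1 CPM in WT livers, median 55.1, and from 43.6 to 65.5 in LKO livers, median 48.1. *Igtp* (chromosome 11, 58199556 to 58207591, plus strand) ran from 17.2 to 48.0 CPM in WT livers, median 20.8, and from 19.5 to 23.9 in LKO livers, median 23.0. For *Igtp* the LKO median was thus above the WT median although its log2 fold change was -0.25 ± 0.216 (SE), adjusted p 0.705 by edgeR's quasi-likelihood test. *Igtp* shares exonic bases on the same strand with *Irgm2*. Of the *Igtp* stretches, 11.8% also occur in another gene, most often *Irgm2*, so the counts of both genes are uncertain. *Gbp2* and *Gbp3*, on chromosome 3 beside *Gbp7*, had log2 fold changes of -0.21 ± 0.256 and -0.13 ± 0.172 (SE).

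The sensors that recognise foreign or misplaced nucleic acid had their lower mean in LKO livers in 4 of 4 genes, with a median log2 fold change of -0.22. *Ifih1*, which encodes the double-stranded RNA sensor MDA5 (chromosome 2, 62595798 to 62646255, minus strand), ran from 39.2 to 56.8 CPM in WT livers, median 44.9, and from 33.6 to 41.0 in LKO livers, median 35.0. The LKO values lay close together, and only the highest LKO liver at 41.0 reached above the lowest WT liver at 39.2. The fitted log2 fold change was -0.34 ± 0.089 (SE), with an adjusted p of 0.127 by edgeR's quasi-likelihood test and 0.0300 by DESeq2, and leaving out single livers kept it between -0.38 and -0.27. *Ddx58*, which encodes RIG-I, had a log2 fold change of -0.15 ± 0.094 (SE) and *Dhx58*, which encodes LGP2, one of -0.19 ± 0.143 (SE). *Dhx58* shares bases with the antisense gene *Dhx58os*. *Zbp1*, a sensor of Z-form nucleic acid that can trigger cell death, ran from 3.30 to 11.8 CPM in WT livers, median 4.25, and from 3.30 to 5.97 in LKO livers, median 4.75. A single WT liver stood at 11.8 and the next highest of all 12 livers, an LKO liver, at 5.97, so the log2 fold change of -0.25 ± 0.290 (SE) became 0.14 without that WT liver.

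The antiviral effectors divided: 8 of 15 had their lower mean in LKO livers and 7 the higher, and their median log2 fold change was -0.03. The effectors include the IFIT proteins, which bind viral RNA, the oligoadenylate synthetases (OAS), which switch on RNase L, and the MX GTPases, which can hold back virus replication. The gene annotation lists *Mx2* as a polymorphic pseudogene, so its RNA in these mice may not make a working protein. *Mx2* (chromosome 16, 97535308 to 97560900, plus strand) ran from 4.83 to 9.12 CPM in WT livers, median 8.00, and from 4.11 to 6.95 in LKO livers, median 5.35. Of the WT livers, 5 lay above every LKO liver and replicate 3, at 4.83, lay within the LKO range. For *Mx2* the log2 fold change was -0.47 ± 0.165 (SE), adjusted p 0.262 by edgeR's quasi-likelihood test. *Mx1*, its neighbour on chromosome 16, had a log2 fold change of -0.18 ± 0.202 (SE).

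*Rsad2*, which encodes viperin (chromosome 12, 26442746 to 26456452, minus strand), ran from 8.76 to 18.6 CPM in WT livers, median 12.2, and from 6.11 to 13.0 in LKO livers, median 9.24. LKO replicate 1, at 13.0, was above 5 of the 6 WT livers, while the other 5 LKO livers were at 10.2 or less. The log2 fold change of *Rsad2* was -0.46 ± 0.181 (SE), adjusted p 0.325 by edgeR's quasi-likelihood test. *Ifit1* (chromosome 19, 34640871 to 34650009, plus strand) ran from 7.75 to 17.8 CPM in WT livers, median 9.87, and from 7.35 to 9.44 in LKO livers, median 7.57. WT replicate 2 gave the 17.8, the next highest liver was at 11.1, and the log2 fold change of -0.43 ± 0.175 (SE; adjusted p 0.342 by edgeR's quasi-likelihood test) became -0.23 without it. Of the 50-base stretches of *Ifit1*, 7.13% also occur in another gene, most often its paralog *Ifit1bl2*.

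The other IFIT genes lie beside *Ifit1* on chromosome 19, and their differences from it were not tested. *Ifit2* had a log2 fold change of 0.26 ± 0.154 (SE), *Ifit3* one of -0.08 ± 0.145 and *Ifit3b* one of -0.14 ± 0.210. Of the 50-base stretches of *Ifit3*, 51.2% also occur in another gene, most often *Ifit3b*. For *Ifit3b* the share is 45.0%, most often with *Ifit3*, so the counts of both are uncertain. Of the OAS genes on chromosome 5, *Oas2* (0.21 ± 0.189), *Oas3* (0.26 ± 0.224), *Oas1a* (0.07 ± 0.281) and *Oasl2* (0.15 ± 0.164) had the higher mean in LKO livers and *Oasl1* (-0.10 ± 0.189) the lower. Of the *Oas1a* stretches, 57.6% also occur in another gene, most often *Oas1g*. *Bst2*, which encodes tetherin, a protein that holds budding virions on the cell surface (chromosome 8, 71534255 to 71537456, minus strand), ran from 83.2 to 98.2 CPM in WT livers, median 84.8, and from 87.7 to 103 in LKO livers, median 95.6. Its groups overlapped, and its log2 fold change was 0.12 ± 0.065 (SE), adjusted p 0.509 by edgeR's quasi-likelihood test. The remaining effectors, *Trim30a* (0.08 ± 0.139) and the exonuclease gene *Isg20* (-0.03 ± 0.206), were close to 0.

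**Figure D2:**
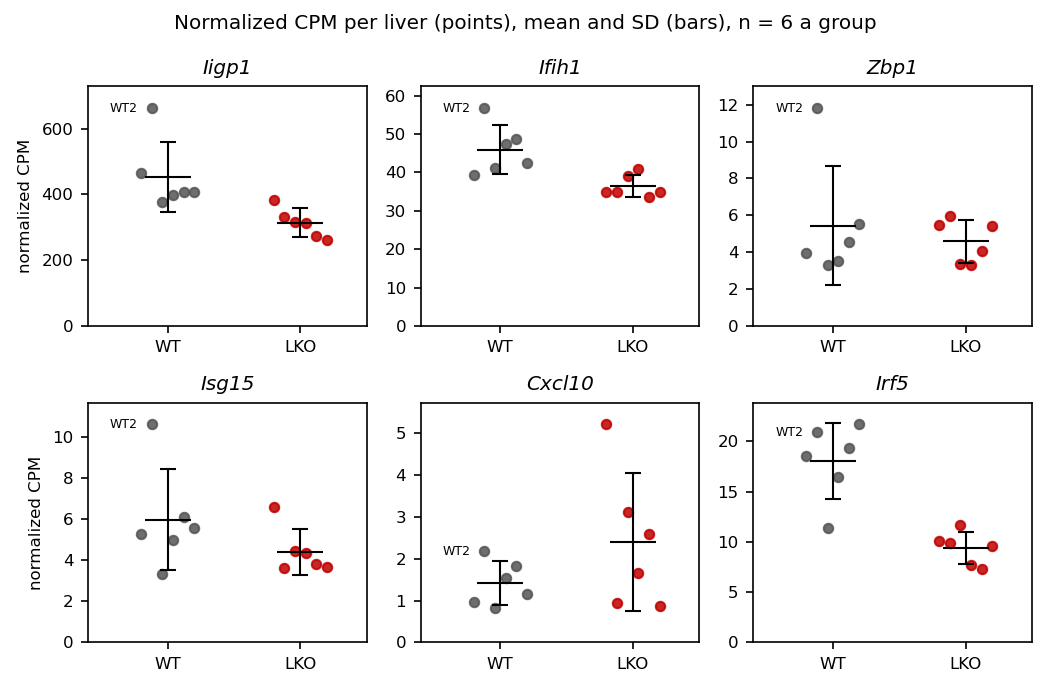
Normalized CPM of *Iigp1*, *Ifih1*, *Zbp1*, *Isg15*, *Cxcl10* and *Irf5* in each liver (points; 6 WT in grey, 6 LKO in red), with the mean and SD of each group as bars and WT replicate 2 marked. The marked liver is the highest for *Iigp1*, *Ifih1*, *Zbp1* and *Isg15*, the spread of *Cxcl10* lies in the LKO group, and for *Irf5* the groups overlap by 1 WT and 1 LKO liver.

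All 6 regulators had their lower mean in LKO livers, with a median log2 fold change of -0.17 and a lowest edgeR adjusted p of 0.486. *Isg15*, a ubiquitin-like protein that is attached to other proteins (chromosome 4, 156199424 to 156200818, minus strand), ran from 3.30 to 10.6 CPM in WT livers, median 5.39, and from 3.62 to 6.56 in LKO livers, median 4.06. WT replicate 2 stood at 10.6 and LKO replicate 1 at 6.56, apart from the rest of their groups. Its log2 fold change was -0.44 ± 0.234 (SE), adjusted p 0.497 by edgeR's quasi-likelihood test, and -0.19 without WT replicate 2. *Usp18*, which removes ISG15 from proteins and dampens the type I receptor, had a log2 fold change of -0.22 ± 0.154 (SE).

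Neither *Stat2* nor *Irf9*, whose products bind the ISRE in a complex, passed the test. *Stat2* (chromosome 10, 128270559 to 128292849, plus strand) ran from 81.3 to 118 CPM in WT livers, median 92.8, and from 74.7 to 103 in LKO livers, median 87.5. The log2 fold changes were -0.13 ± 0.102 (SE) for *Stat2* and -0.21 ± 0.113 for *Irf9*, with adjusted p-values of 0.670 and 0.486 by edgeR's quasi-likelihood test. The groups overlapped for both genes. *Irf1* and *Irf7*, transcription factors that act in interferon responses and interferon production, both had log2 fold changes of -0.04, with SEs of 0.142 and 0.134.

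The chemokines *Cxcl9* and *Cxcl10*, which draw activated T cells and natural killer cells, were the one role with the higher mean in LKO livers for each gene, and neither passed the test. *Cxcl10* (chromosome 5, 92346638 to 92348889, minus strand) ran from 0.826 to 2.18 CPM in WT livers, median 1.35, and from 0.865 to 5.21 in LKO livers, median 2.12. LKO replicates 1, 3 and 5 were above every WT liver and the other 3 were within the WT range. Its log2 fold change of 0.76 ± 0.402 (SE) was the widest of the 39, with an adjusted p of 0.489 by edgeR's quasi-likelihood test, and it became 0.37 without LKO replicate 1. *Cxcl10* shares exonic bases with *Art3* on the other strand. *Cxcl9* ran from 4.70 to 15.8 CPM in WT livers, median 8.91, and from 6.87 to 12.3 in LKO livers, median 10.2, a log2 fold change of 0.06 ± 0.273 (SE). The LKO values of *Cxcl9* lay inside the WT range.

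The other induced genes had their lower mean in LKO livers in 6 of 6 cases, with a median log2 fold change of -0.19 and a lowest edgeR adjusted p of 0.436. *Ifi27*, which encodes a small mitochondrial protein (chromosome 12, 103434211 to 103440239, plus strand), ran from 53.8 to 79.0 CPM in WT livers, median 70.01, and from 41.7 to 70.9 in LKO livers, median 59.7. Its groups overlapped over most of their range, and its log2 fold change was -0.22 ± 0.121 (SE), adjusted p 0.510 by edgeR's quasi-likelihood test. *Rtp4* had a log2 fold change of -0.28 ± 0.132 (SE), and 11.6% of its stretches also occur in another gene, most often the overlapping *Gm45338*. *Ifi44* (-0.21 ± 0.194), *Xaf1* (-0.17 ± 0.170), the ADP-ribosyltransferase gene *Parp14* (-0.12 ± 0.119) and *Ifi35* (-0.04 ± 0.072) lay nearer to 0.

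WT replicate 2 stood above the other livers across these genes. It was the highest of all 12 livers for 24 of the 39 genes (61.5%), while it was the highest for 10.8% of all tested genes, and it was the highest WT liver for 30 of the 39. Its level was 1.41 times the mean of the other 5 WT livers in the median over the 39 genes, against 0.992 over all tested genes, and for 18 of the 39 it was at least 1.5-fold higher, as for 7.99% of all genes. The widest ratios were 2.84 for *Zbp1*, 2.15 for *Igtp*, 2.11 for *Isg15*, 1.93 for *Gbp2* and 1.90 for *Ifit1*. Genes of each of the 6 roles were among the 18. Not all genes shared in it: *Mx1* (0.748) and *Irf1* (0.764) were lower in WT replicate 2 than in the other WT livers, and *Ifit3b* (0.995) and *Ifi27* (1.06) were near their mean.

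Averaged over the 39 genes, log2 CPM in WT replicate 2 was 0.46 above the WT mean, and the other 5 WT livers lay between -0.23 and -0.01. The 6 LKO livers lay between -0.29 and 0.07. The group means of this level were 0 for WT by construction, with an SD of 0.241 (n = 6), and -0.11 ± 0.139 (SD, n = 6) for LKO. Without WT replicate 2 the WT mean was -0.09 ± 0.092 (SD, n = 5). With and without that liver the groups differed by less than the spread within either. Within the LKO group, replicates 1 and 3 were each the highest LKO liver for 14 of the 39 genes. Over all tested genes these shares were 23.5% for replicate 1 and 15.4% for replicate 3. LKO replicate 6 was the lowest of all 12 livers for 9 of the 39, and for 6.96% of all tested genes.

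**Figure D3:**
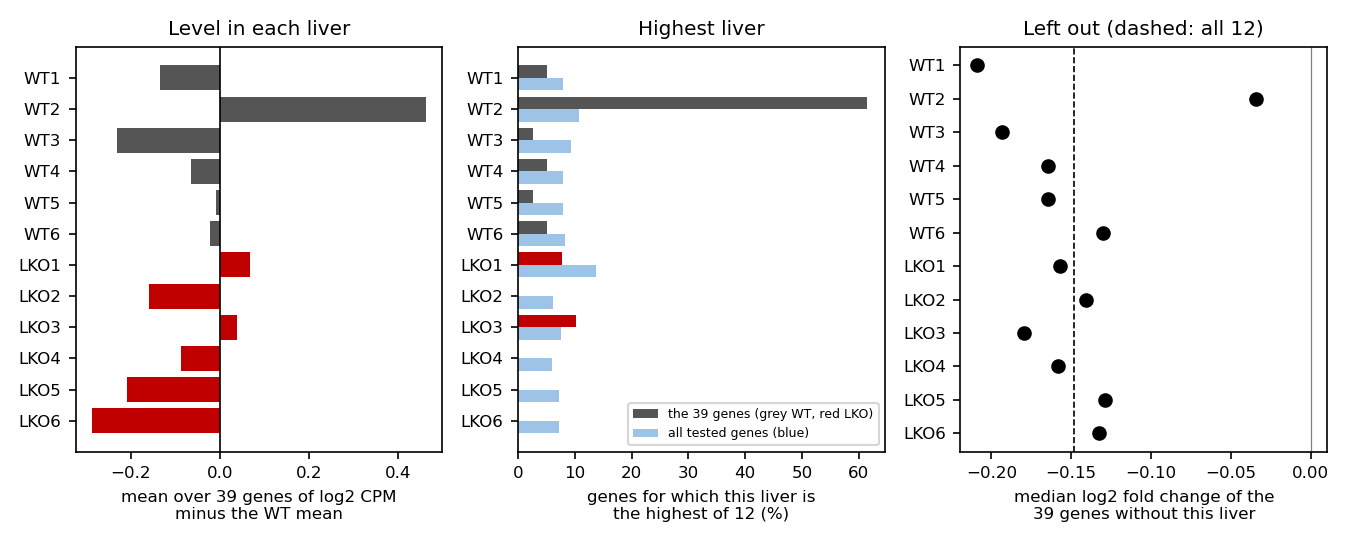
For each of the 12 livers (WT in grey, LKO in red), the mean over the 39 genes of log2 CPM minus the WT mean (left), the share of genes for which that liver was the highest of the 12 (middle; the 39 genes in the group colour, all tested genes in blue), and the median log2 fold change of the 39 genes when that liver is left out (right; dashed line, all 12 livers). WT replicate 2 stands at 0.46, at 61.5% and at -0.03, and no other liver left out brings the median above -0.13.

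Leaving out WT replicate 2 moved 23 of the 39 fold changes more than leaving out any other liver did. Without it, 22 of the 39 genes had a log2 fold change below 0, against 49.8% of all genes, and their median was -0.03. For 26 genes the fold change came closer to 0. For 8 genes the sign turned, namely *Ifit3*, *Oasl1*, *Gbp2*, *Gbp3*, *Igtp*, *Ifi35*, *Irf7* and *Zbp1*. Among the roles, the median of the GTPases became -0.07, that of the sensors -0.07, that of the regulators -0.08, that of the other induced genes -0.07, that of the chemokines 0.56, and that of the antiviral effectors turned from -0.03 to 0.06. By edgeR's quasi-likelihood test 0 of 39 genes were called without it, while 45 of all genes were called higher and 25 lower. At an unadjusted p under 0.05 there were 6 of the 39, 4 lower and 2 higher, against 11.5% of all genes. Without any other single liver the median stayed between -0.21 and -0.13. *Iigp1*, *Ifih1* and *Mx2* kept log2 fold changes of -0.39, -0.27 and -0.43 without WT replicate 2.

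**Figure D4:**
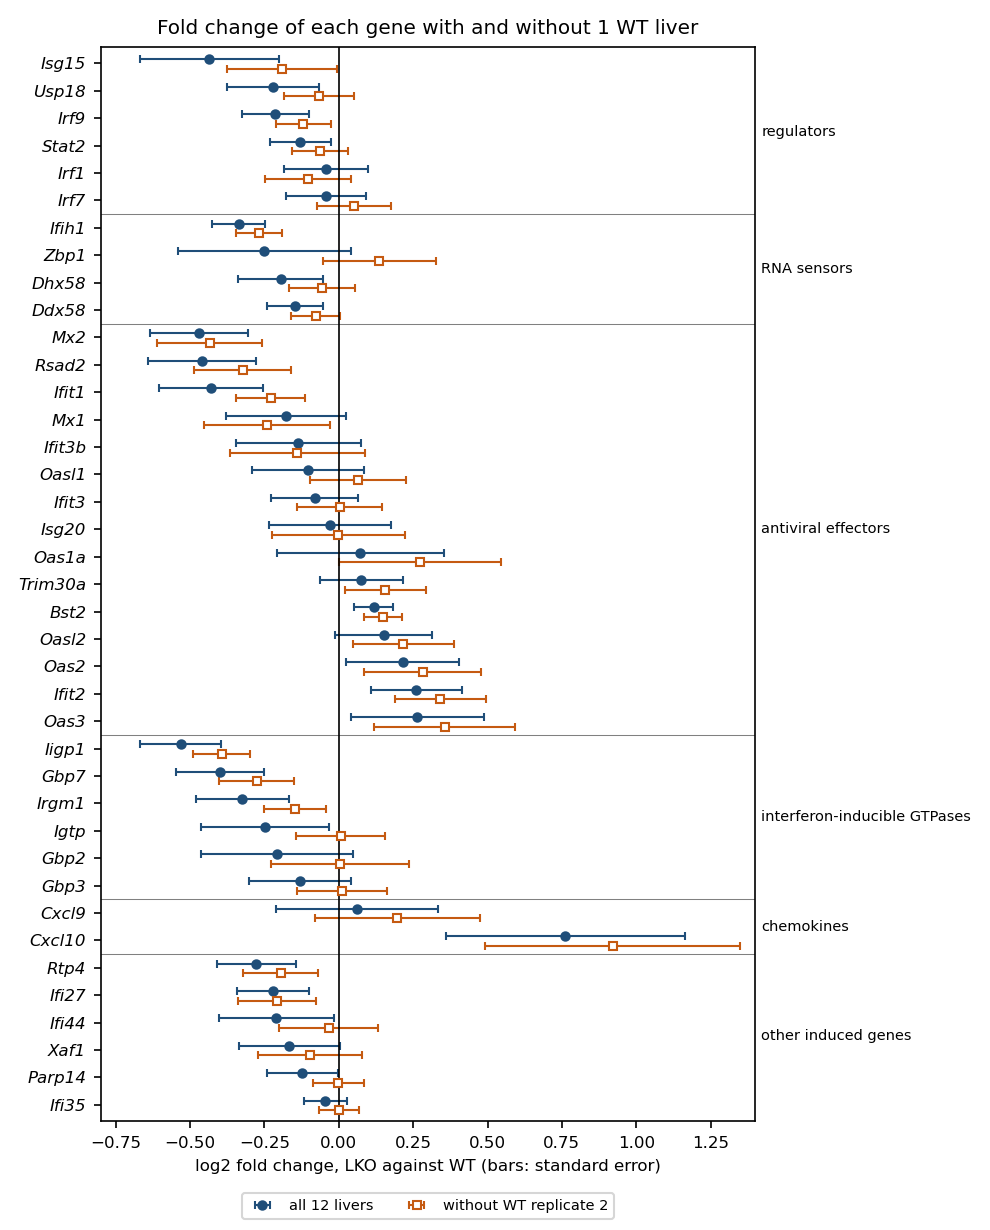
Log2 fold change (LKO against WT) of each of the 39 genes with its standard error, by role, from all 12 livers (filled blue circles) and without WT replicate 2 (open orange squares). For 26 genes the square lies nearer to 0 than the circle, while *Mx2*, *Ifih1* and *Iigp1* stay below 0 and *Cxcl10* above it.

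Of 104 further genes of the interferon pathway in the table, 82 were tested, and edgeR's quasi-likelihood test called 1, *Irf5*, lower in LKO livers. At an unadjusted p under 0.05 there were 15 of 82, 7 higher and 8 lower, against 11.7% of all genes, and without WT replicate 2 there were 13, 10 higher and 3 lower. With all 12 livers the median log2 fold change of the 82 was 0.0047. *Irf5* encodes a transcription factor that acts downstream of Toll-like receptors and is known for its role in macrophages and B cells. It ran from 11.4 to 21.7 CPM in WT livers, median 18.9, and from 7.31 to 11.7 in LKO livers, median 9.77. WT replicate 3, at 11.4, was the only WT liver within the LKO range. The log2 fold change of *Irf5* was -0.95 ± 0.151 (SE), adjusted p 0.00986 by edgeR's quasi-likelihood test, and without single livers the adjusted p ran from 0.000544 to 0.0335. *Irf5* overlaps *Tnpo3* on the other strand, so its count is uncertain.

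The interferon genes themselves were at or near 0. Of 21 ligand genes, 19 had no read in any of the 12 livers and none was tested. *Ifnk* had 17 reads over all 12 livers and *Ifng* had 2, and no liver held more than 3 reads of either. At this depth a difference in ligand RNA was not detectable. The receptors (6 tested), inhibitors (5) and sensors and adaptors (15) gave 0 calls by edgeR's quasi-likelihood test. *Tyk2*, a kinase of the type I receptor, ran from 30.3 to 35.9 CPM in WT and from 23.0 to 29.1 in LKO livers, without overlap (as for 1.3% of all genes). The log2 fold change of *Tyk2* was -0.31 ± 0.068 (SE), adjusted p 0.0639 by edgeR's quasi-likelihood test and 0.00287 by DESeq2. *Il10rb*, a subunit of the type III receptor (0.36 ± 0.132), the RNA sensor gene *Tlr7* (0.63 ± 0.246) and the RNA-editing gene *Adar* (-0.23 ± 0.095) had adjusted p-values of 0.280, 0.322 and 0.363 by edgeR's quasi-likelihood test. *Irf2*, a transcription factor that can repress interferon responses, had a log2 fold change of -0.26 ± 0.105 (SE), adjusted p 0.325 by the same edgeR test.

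Among the 47 further induced genes tested, 0 were called by edgeR's quasi-likelihood test and 9 had an unadjusted p under 0.05, 5 higher and 4 lower, against 11.7% of all genes. Without WT replicate 2 there were 7, all of them higher. With all 12 livers, those with the higher mean in LKO livers were *Ifi204* (0.42 ± 0.164), *Ifi207* (0.48 ± 0.220), *Phf11b* (0.82 ± 0.273), *Slfn5* (0.28 ± 0.106) and *Sp100* (0.34 ± 0.089). Those with the lower mean were *Ifi47* (-0.47 ± 0.212), *Irgm2* (-0.33 ± 0.144), *Dtx3l* (-0.18 ± 0.072) and *Parp12* (-0.18 ± 0.074). The groups of *Sp100* (7.54 to 9.53 CPM in WT, 9.72 to 12.1 in LKO) and *Phf11b* (0.157 to 0.471 in WT, 0.513 to 0.751 in LKO) did not overlap, as for 1.3% of all genes. The adjusted p-values of *Sp100* and *Phf11b* by edgeR's quasi-likelihood test were 0.120 and 0.235. At these levels *Phf11b* had few reads in each liver, so its counting error is wide. *Ifi47* and *Irgm2* are GTPases, and WT replicate 2 was far the highest WT liver for both. Their log2 fold changes without it were -0.20 and -0.15. Leaving out LKO replicate 3 lowered the count of pathway genes at an unadjusted p under 0.05 from 15 to 8. The share of all genes at that threshold was not computed without LKO replicate 3. Leaving out LKO replicate 1 raised the called pathway genes to 2, with *Tyk2* (adjusted p 0.0377 by edgeR's quasi-likelihood test).

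The hepatocyte markers were abundant in every liver, as the tissue label says, at a summed 104871 to 126142 CPM in WT and 96214 to 108792 CPM in LKO livers, and 5 of 8 had the lower mean in LKO. No marker of another liver cell type was called by edgeR's quasi-likelihood test, and most had the higher mean in LKO livers. All 10 Kupffer cell markers had the higher mean in LKO livers, 8 of them at an unadjusted p under 0.05 (6.33% of all genes were higher at that level), with a median log2 fold change of 0.35. Their summed level was 122 to 172 CPM in WT and 150 to 257 CPM in LKO livers, and the lowest adjusted p was 0.114 by edgeR's quasi-likelihood test. All 6 tested of 7 markers of recruited myeloid cells were higher in the mean (summed 1.73 to 3.52 CPM in WT, 3.14 to 10.3 in LKO), while *Ly6g* had no read in any LKO liver and at most 2 in a WT liver. All 6 B cell markers (0.967 to 2.20 CPM in WT, 2.09 to 3.93 in LKO), 7 of 7 stellate cell markers (162 to 248 and 190 to 284), 7 of 8 sinusoidal endothelial markers (174 to 232 and 186 to 231) and 6 of 8 tested T and natural killer cell markers (2.57 to 4.06 and 2.47 to 4.56) had the higher mean in LKO livers. Plasmacytoid dendritic cell markers stayed at 0.386 to 1.27 CPM in WT and 0.627 to 1.62 in LKO livers in sum. WT replicate 2 was the highest WT liver in the Kupffer sum, at 172 CPM, and LKO replicates 1 and 3 held the highest sums for recruited myeloid and Kupffer cells, respectively. The part of these cells in the levels of the 39 genes and of *Irf5* was not tested.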

How the data were processed

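RNA was measured in 12 mouse livers, 1 library per mouse (6 WT, 6 LKO), grouped by the genotype in the labels. The authors used a KAPA mRNA kit, FastQC 0.11.15, Trimmomatic 0.36 and HISAT2 2.1.0 with Ensembl genes on GRCm38.p6, and deposited raw counts per gene from HTSeq 0.6.1, with no normalization. The strand setting and the overlap mode of the counting are not given in the sources used here. Since reads carried no molecular identifiers, depth covers counting error only.

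Gene positions came from GENCODE M21, promoters from RefSeq. A gene was kept if at least 6 livers held over 2 reads of it. The test was edgeR's quasi-likelihood test (edgeR 4.0.16, R 4.3.3) after TMM scaling, genotype being the only term, with Benjamini-Hochberg adjustment over all 17509 genes. Normalized CPM and log2 CPM (prior count 0.5) were computed from the counts. The alternatives were RLE and upper-quartile scaling, no filter, at least 10 reads in every liver, limma voom (limma 3.58.1, the test of the study), DESeq2 1.42.0, a replicate block, leaving the 20 most abundant genes out of the scaling, and leaving out each liver. The tests were first tried on simulated data.

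The 39 genes and the pathway and marker lists were chosen with earlier results of these data known. Of 105 pathway genes listed, 104 were in the table, and *Mnda* was not matched. Values were given in full for genes with an adjusted or unadjusted p under 0.05 or groups that did not overlap, the 5 widest fold changes and the 5 highest levels per kb of exon, and for *Marchf6*. The values of 1 further gene that this rule names are not reported here. *Igtp*, *Irgm1*, *Zbp1* and *Cxcl9* were described more fully after their values were seen. Exonic 50-base stretches that occur in another gene mark uncertain counts.

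No 2 libraries of a group agreed within sampling noise (lowest chi-square per degree of freedom 8.06). The labels name no batch that divides the livers. Same-numbered WT and LKO livers deviated from their group means with correlations from -0.06 to 0.14, so the numbers were not taken to pair the mice.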

Additional observations from a re-analysis of the deposited data

Results flagged for a closer look

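The search covered 112 groups of 6 livers. In each genotype these were the 39 genes, the pathway genes at an unadjusted p under 0.05 by edgeR's quasi-likelihood test, the mean level of the 39 genes, and the total reads. The gap between the highest or lowest liver and its nearest neighbour was divided by the range of the group. This share was compared with Dixon's 95% critical value for 6 samples. The share was above that value in 14 groups. By chance about 1 in 20 groups (5.6 of 112) would pass if the groups were independent and normally distributed. These groups share the same livers and were searched without logs, so that rate is only a guide.

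WT replicate 2 was the liver set apart, as the highest, in 11 of them. The share was 0.680 for the mean level of the 39 genes, 0.686 for *Iigp1*, 0.717 for *Irgm1*, 0.667 for *Ifit1*, 0.725 for *Trim30a*, 0.629 for *Usp18*, 0.647 for *Dhx58* and 0.738 for *Zbp1*. Of the pathway genes outside the 39 it was 0.767 for *Dtx3l*, 0.721 for *Ifi47* and 0.691 for *Irgm2*. Among all tested genes WT replicate 2 was set apart as the highest WT liver for 1.66%.

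LKO replicate 1 was set apart as the highest LKO liver for *Irgm1* (0.726) and *Isg15* (0.719), and over all tested genes for 3.11%. LKO replicate 3 was set apart as the highest for *Phf11b* (0.804).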

How the results depend on the processing

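The count of 0 called interferon-stimulated genes held under every alternative but DESeq2, which called 2, both lower (*Iigp1*, adjusted p 0.0149, and *Ifih1*, 0.0300), and gave no adjusted p to 2387 genes. DESeq2 also called 3 pathway genes (*Irf5*, *Tyk2* and *Sp100*) and 350 of all genes, 179 higher and 171 lower, and without the filter edgeR called 114, 79 of them higher. Leaving out single livers gave 38 to 132 calls over all genes, 26 to 83 higher and 12 to 49 lower, and 1 to 2 called pathway genes. At an unadjusted p under 0.05 it gave 8 to 17 pathway genes and 5 to 11 of the 39. The cause was not tested. The share of all genes at that threshold was computed only for the genotype-only edgeR fit of all 12 livers and for that without WT replicate 2. The other counts at that threshold are thus no result about these lists.

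The median log2 fold change of the 39 genes lay between -0.15 and -0.13 under the other scalings, filters and tests, and between -0.21 and -0.03 without single livers. With the replicate number as a block, 0 of the 39 genes, 1 pathway gene (*Irf5*) and 97 of all genes were called, and 19 pathway genes had an unadjusted p under 0.05. Of the 6 LKO livers, 3 correlated best with the WT liver of their number.

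Some fold changes near 0 turned sign without single livers. Their ranges on the log2 scale were -0.19 to 0.0024 for *Ifit3*, -0.14 to 0.15 for *Isg20*, -0.070 to 0.27 for *Oas1a*, -0.22 to 0.065 for *Oasl1*, -0.078 to 0.26 for *Cxcl9*, -0.29 to 0.0040 for *Gbp2*, -0.21 to 0.011 for *Gbp3*, -0.34 to 0.0060 for *Igtp*, -0.072 to 0.00052 for *Ifi35*, -0.10 to 0.073 for *Irf1*, -0.12 to 0.051 for *Irf7* and -0.36 to 0.14 for *Zbp1*. *Isg20* was also above 0 (0.0093) under limma voom. Counting error is widest for genes with few reads, such as *Oas3* with 8 to 32 per liver. The SE also holds the spread between livers, and *Zbp1* and *Cxcl9*, with more reads, had wider SEs than *Oas3*.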

Other observations

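WT replicate 3 held both ends of these genes. It was the lowest of all 12 livers for 11 of the 39 (*Isg15*, *Irf7*, *Ddx58*, *Zbp1*, *Ifit2*, *Mx1*, *Oas1a*, *Oas3*, *Oasl1*, *Cxcl10* and *Parp14*), and for 8.32% of all tested genes. It was also the highest of the 12 for *Cxcl9*, at 15.8 CPM, and the next highest after WT replicate 2 for *Igtp* (34.4 against 48.0 CPM), *Gbp7* (21.4 against 25.3), *Gbp3* (6.79 against 8.65) and *Gbp2* (4.64 against 5.77). These genes were picked out after their values were seen, and the pattern was not tested.

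Among the LKO livers, replicate 1 was the highest LKO liver for *Iigp1* (384 CPM), *Rsad2* (13.0), *Ifit1* (9.44) and *Cxcl10* (5.21), while replicate 3 was the highest for *Bst2* (103), *Oas2* (6.06) and *Oasl2* (8.66). LKO replicate 6 was the lowest of all 12 livers for *Iigp1* (260 CPM), *Mx2* (4.11) and *Rsad2* (6.11).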
